A study of Homo sapiens with 27 samples.

Results

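Box C/D small nucleolar RNAs (snoRNAs) with a listed pseudouridine (Ψ) site were examined in HEK293T cells, a human embryonic kidney cell line, with and without knockdown of the Ψ synthase DKC1. The members are every site of the authors' snoRNA table whose gene name starts with SNORD, apart from SNORD118 and SNORD13. Those are U8 and U13, which are also C/D snoRNAs but are counted apart here. They come to 26 sites in 18 snoRNAs, of 73 sites in 53 snoRNAs and scaRNAs in the table. The other sites are 37 in H/ACA snoRNAs, 6 in scaRNAs of Cajal bodies and 4 in U8 and U13. The libraries were made with PRAISE, in which a bisulfite-type treatment turns Ψ into an adduct that is read as a deletion, so that the share of covering reads with a deletion gives the level of a site. Those used here are the negative control of the DKC1 experiment (DKC1 NC) and the DKC1 knockdown (DKC1 KD), with 2 treated libraries and 1 untreated library each, out of 27 samples of 9 genotypes in the series. All were prepared from size-selected small RNA that had been demethylated with AlkB before the treatment. The labels call the treated libraries technical replicates, so every p-value below measures technical spread and none measures the spread between cultures or clones. They do not say how the knockdown was made or how many clones it comprises, and DKC1 mRNA is not measured in the tables, so the depth of the knockdown was not checked here.

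C/D snoRNAs are named for their box C and box D motifs and assemble with fibrillarin, NOP56, NOP58 and SNU13. Most of them pair with ribosomal or spliceosomal RNA through a guide stretch next to a box D, and fibrillarin then methylates the ribose of the paired nucleotide. U3, the product of SNORD3A, and U14, of which SNORD14B is a copy, are also needed to cleave the ribosomal precursor. Isomerization of uridine to Ψ is the work of the other family, the H/ACA RNAs, which carry DKC1 (dyskerin) as their catalytic subunit and guide it to a uridine by base pairing. In the present data C/D snoRNAs are therefore read as RNAs that are themselves modified. Most vertebrate C/D snoRNAs are cut out of introns of host genes, many of which encode ribosomal proteins.

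The sequences on which the results turn are printed as DNA letters from GENCODE transcripts on GRCh38, 5′ to 3′, with the listed Ψ sites in capitals. A site of several positions is a run of T in which the deletion cannot be assigned to a single base. The first are the snoRNAs with the largest falls in level among the tested members, SNORD45A (chr1:75787889-75787972, plus strand, host RABGGTB), SNORD32A (chr19:49489965-49490048, plus strand, host RPL13A), SNORD16 (chr15:66502812-66502910, minus strand, host RPL4) and SNORD92 (chr2:28913664-28913748, plus strand, host WDR43).
SNORD45A: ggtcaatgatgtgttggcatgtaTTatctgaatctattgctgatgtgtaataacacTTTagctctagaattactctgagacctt
SNORD32A: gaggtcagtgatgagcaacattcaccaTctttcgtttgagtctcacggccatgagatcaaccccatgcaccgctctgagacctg
SNORD16: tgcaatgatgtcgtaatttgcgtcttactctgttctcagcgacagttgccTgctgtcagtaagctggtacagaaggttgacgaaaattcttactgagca
SNORD92: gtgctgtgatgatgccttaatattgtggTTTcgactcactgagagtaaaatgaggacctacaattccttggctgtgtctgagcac
Beside SNORD32A, SNORD51 (chr2:206161878-206161957, plus strand, host EEF1B2) and SNORD2 (chr3:186784796-186784864, plus strand, host EIF4A2) carry their site in a stretch of nearly the same letters.
SNORD51: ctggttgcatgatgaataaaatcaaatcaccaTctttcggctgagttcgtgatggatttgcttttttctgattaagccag
SNORD2: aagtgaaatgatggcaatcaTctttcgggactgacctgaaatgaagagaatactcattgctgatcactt
The next hold several sites in 1 RNA. They are SNORD21 (chr1:92837289-92837383, plus strand, host RPL5), SNORD3A (chr17:19188016-19188232, plus strand, no host gene), SNORD14B (chr11:17075779-17075868, minus strand, host RPS13) and SNORD97 (chr11:10801467-10801608, minus strand, host EIF4G2).
SNORD21: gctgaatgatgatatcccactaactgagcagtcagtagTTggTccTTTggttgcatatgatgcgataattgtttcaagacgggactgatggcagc
SNORD3A: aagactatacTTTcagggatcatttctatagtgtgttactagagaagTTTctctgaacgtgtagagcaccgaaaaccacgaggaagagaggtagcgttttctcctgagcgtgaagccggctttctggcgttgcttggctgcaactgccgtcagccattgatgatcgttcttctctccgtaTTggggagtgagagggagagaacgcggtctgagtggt
SNORD14B: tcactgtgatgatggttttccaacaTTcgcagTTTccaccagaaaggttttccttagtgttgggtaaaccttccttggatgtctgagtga
SNORD97: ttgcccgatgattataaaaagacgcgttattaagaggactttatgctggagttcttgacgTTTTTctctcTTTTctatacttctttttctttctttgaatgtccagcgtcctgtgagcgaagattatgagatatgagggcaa
Deposited positions are used as site names throughout. In some snoRNAs the GENCODE transcript begins a few bases away from the deposited numbering, upstream in SNORD51 and SNORD32A and downstream in SNORD92. SNORD92 and SNORD51 lie within their host genes, and their listed sites overlap no exon of any annotated host transcript. The sites of SNORD45A fall in an exon of 2 of 14 RABGGTB transcripts, SNORD16 51 in an exon of 2 of 17 RPL4 transcripts and SNORD32A 27 in an exon of 4 of 14 RPL13A transcripts, and all are intronic in the remaining ones that span them.

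In the DKC1 knockdown, Ψ levels in C/D snoRNAs were lower than in the negative control at 9 of the 23 sites that could be tested, and none was higher. This is 39.1% of the tested C/D sites, and 27.4% of all 62 tested snoRNA sites were called lower. A site was tested with at least 20 reads in each of the 4 treated libraries. A call required an adjusted p under 0.05, from a quasi-binomial model with limma-moderated dispersion and Benjamini-Hochberg adjustment over the 62 sites, and a difference of at least 10 percentage points. No C/D site was higher even at an unadjusted p under 0.05, and none was higher by limma on percentages or by Fisher's exact test. The lack of higher sites is not particular to C/D snoRNAs. In the main fit none of all 62 tested sites was higher at an unadjusted p under 0.05. Without the 10-point minimum, 18 of the 23 were lower, beside 67.7% of all sites tested. At 21 of the 23 both knockdown libraries lay below both controls, beside 79.0% of all sites tested. Any site whose control level is under 10% cannot fall by 10 points, which holds for 4 of the 23. Without knockdown replicate 1, or without knockdown replicate 2, 2 of the 9 calls remained, SNORD16 51 and SNORD92 31-33, in a fit whose denominator degrees of freedom fell from 124 to 2.263. With the knockdown counts as deposited, which contradict the deposited rates, 19 sites were lower.

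The control level of the tested C/D sites ran from 5.66% to 91.3% with a median of 17.03%, and the median in the knockdown was 8.80%. The median change was -9.38 points, and the median share of the control level left in the knockdown was 45.02% (quartiles 35.9% and 64.1%). Over all 62 tested sites these medians were -6.32 points and 56.0%. Less than 50% of the control level was left at 13 of the 23 sites, against 23 of 62. The treated libraries of a group differed by a median of 1.42 points in the control and 1.43 in the knockdown, and by up to 15.3 and 26.9 points. In the untreated libraries no C/D site reached more than 2.44% of reads with a deletion, and the medians were 0.105% and 0.107%.

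**Figure D1:**
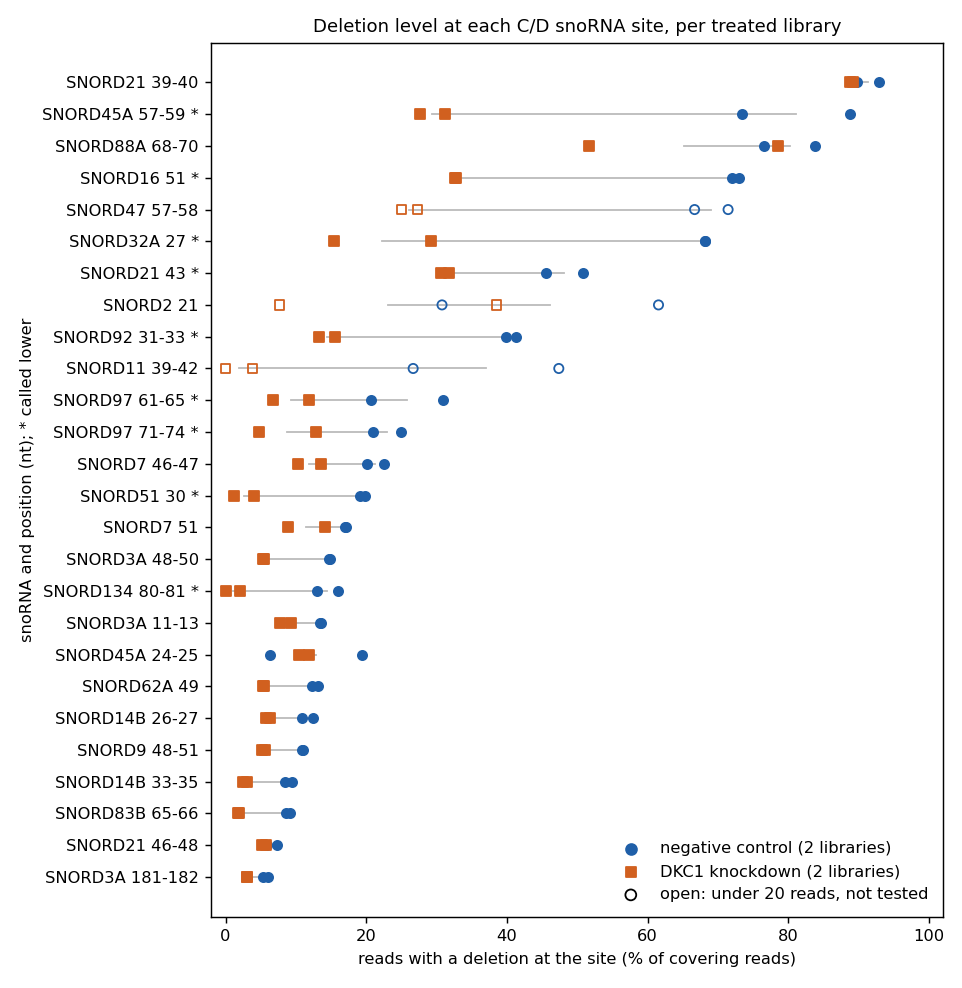
Deletion level (% of covering reads, x axis) of all 26 C/D snoRNA sites (y axis, ordered by mean control level), with 1 point per treated library, 2 for the negative control and 2 for the DKC1 knockdown, and a line joining the group means. Asterisks mark the 9 sites called lower, and open symbols the 3 sites with under 20 reads in a library. At SNORD21 39-40 the libraries stay between 88.8% and 92.8%, whereas at SNORD45A 57-59 the knockdown libraries lie far to the left of the controls.

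Among the tested members, the largest falls were in guides for ribose methylation of ribosomal RNA. Outside the members, SNORD13 72-73, in U13, fell by more, with a change of -55.9 points. At positions 57-59 of SNORD45A, a guide for small-subunit rRNA, the level was 73.5% and 88.7% in the control libraries and 27.7% and 31.2% in the knockdown. This is a change of -51.7 points (95% interval -64.5 to -38.9, adjusted p = 7.58e-11), on 47 to 77 reads per library. At position 27 of SNORD32A, which is a guide for both ribosomal subunits, both control libraries stood at 68.2% and the knockdown libraries at 15.4% and 29.2%. The groups did not overlap, and the change was -45.9 points (95% interval -64.6 to -27.3, adjusted p = 2.80e-05), although the control libraries had only 22 reads each. Position 51 of SNORD16, another guide for the small subunit, gave the most precise of the large falls. Its level was 72.0% and 73.0% in the control and 32.6% and 32.8% in the knockdown on 7014 to 8891 reads, so that 45.02% of the level was left (95% interval 43.8% to 46.3%, adjusted p = 1.06e-93). At positions 31-33 of SNORD92, a guide for the large subunit, the level went from 41.3% and 39.8% to 13.3% and 15.6%, with 35.6% left (95% interval 30.3% to 41.7%, adjusted p = 2.35e-27). At these 4 sites the libraries of a group lay closer to each other than to those of the other group.

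SNORD51 is known as a guide for the same residue of the large-subunit rRNA as SNORD32A. At its position 30 the level was 19.0% and 19.8% in the control and 4.11% and 1.20% in the knockdown, a change of -16.7 points that left 13.7% of the control level (95% interval 4.14% to 45.3%, adjusted p = 7.98e-05). The modified T of both snoRNAs sits in the stretch tcaccaTctttcg, 13 letters that they share around the site. SNORD2 shares 10 letters with SNORD51, caTctttcgg, and 9 with SNORD32A, with its own site at the same T. No further pair of listed C/D sites shared more than 6 letters around the site, among 266 pairs compared between different snoRNAs. The core of 9 letters, CATCTTTCG, occurs in 5 of 992 snoRNA and scaRNA genes of the annotation (0.504%), which are these 3, SNORD32B and a gene named RF00134. At SNORD2 the level was 61.5% and 30.8% in the control and 7.69% and 38.5% in the knockdown, on 13 reads in each treated library, so that the groups overlapped and the site could not be tested. Control levels of the 3 sites thus ran from about 19% in SNORD51 to 68.2% in SNORD32A despite the shared letters, with under 100 reads per library at each.

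SNORD21, a guide for the large subunit, held 3 sites within a short stretch, and only position 43 was called lower. Position 43 fell from 45.5% and 50.8% to 31.7% and 30.6%, a change of -16.9 points (95% interval -20.4 to -13.5, adjusted p = 1.56e-16). Positions 39-40, only a few letters upstream and covered by nearly the same reads, stood at 92.8% and 89.7% in the control and at 89.2% and 88.8% in the knockdown. This was the highest level among the members and nearly all of it was left, 97.6% (95% interval 95.3% to 99.9%, unadjusted), with a change of -2.23 points that missed the threshold (adjusted p = 0.0721). Positions 46-48 were among the lowest, at 5.85% and 7.26% in the control and 5.21% and 5.76% in the knockdown, with 83.7% left and an interval that includes no change (63.2% to 111%, adjusted p = 0.245). All 3 sites had between 949 and 1129 reads in each treated library.

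Among the members, the sites of U3 and U14 had low levels, and each had fallen by less than 10 points. Such low levels and small falls were also seen at other members, given below. In U8 and U13, which are not members, 3 of 4 tested sites were called lower. In SNORD3A, the U3 RNA, positions 48-50 went from 14.9% and 14.7% to 5.27% and 5.44%, with 36.3% of the level left (adjusted p = 1.21e-41). Positions 11-13 of the same RNA went from 13.4% and 13.5% to 7.75% and 9.30%, with 63.3% left (adjusted p = 1.29e-06). Positions 181-182 were at 5.98% and 5.33% in the control, the lowest control level of all members, and at 3.0% and 2.99% in the knockdown, with 52.9% left (adjusted p = 5.08e-22). The groups were apart at all 3 sites. The letters around each site also occur in other U3 genes of the annotation, SNORD3B-1, SNORD3B-2 and SNORD3C among them, so the reads cannot be assigned to SNORD3A alone. In SNORD14B, positions 33-35 fell from 8.52% and 9.38% to 2.49% and 2.98%, which left 30.6% (adjusted p = 1.19e-25). Positions 26-27 fell from 12.4% and 10.9% to 6.33% and 5.78%, which left 51.9% (adjusted p = 8.72e-17).

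SNORD97, which together with SCARNA97 is known to guide methylation of the wobble cytidine of elongator tRNA-Met, had falls at both of its sites. At positions 61-65 the level was 20.6% and 30.95% in the control and 11.9% and 6.82% in the knockdown, a change of -16.4 points (95% interval -25.6 to -7.23, adjusted p = 3.30e-04). At positions 71-74 it was 25% and 20.9% against 4.72% and 12.9%, a change of -14.2 points (95% interval -23.1 to -5.25, adjusted p = 0.00240). Untreated deletions at positions 61-65 were the highest among the members, at 2.44% in the control and 1.87% in the knockdown, and those at positions 71-74 were 1.57% and 0.935%. In SNORD134, positions 80-81 had 16% and 12.96% in the control and 2.13% and 0% in the knockdown, on 47 to 77 reads per library. A single deletion remained in 124 knockdown reads, so the share left, 5.59% from summed reads, has an exact interval from 0.133% to 36.3%. The change was -13.4 points (adjusted p = 6.07e-04).

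The guides for the spliceosomal U6 RNA were represented by SNORD7 and SNORD9. Positions 46-47 of SNORD7 went from 20.1% and 22.5% to 10.2% and 13.6%, a change of -9.38 points just short of the 10-point minimum (adjusted p = 0.00403). Position 51 of SNORD7 was at 17.1% and 17% in the control and 8.82% and 14.1% in the knockdown, and did not pass (adjusted p = 0.0861), although both knockdown libraries were the lower ones. Positions 48-51 of SNORD9 fell from 10.9% in both control libraries to 5.21% and 5.56%, with 49.4% left (adjusted p = 3.56e-05). Position 49 of SNORD62A, a guide for the small subunit, fell from 12.3% and 13.2% to 5.31% and 5.54% on 9338 to 12823 reads, with 42.5% left (adjusted p = 1.55e-46). The letters around it also occur in SNORD62B, so the reads may come from either gene. Positions 65-66 of SNORD83B fell from 9.21% and 8.64% to 1.82% and 1.87%, with 20.6% left (adjusted p = 7.91e-31). SNORD9, SNORD62A and SNORD83B thus kept less than 50% of their level and still changed by less than 10 points.

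Between the 2 groups, the libraries overlapped at just 2 tested sites. At positions 68-70 of SNORD88A the level was 76.6% and 83.8% in the control and 51.7% and 78.6% in the knockdown. The change of -15.1 points did not pass (95% interval -28.6 to -1.49 unadjusted, adjusted p = 0.0845), and the knockdown libraries were 26.9 points apart on 60 and 70 reads. At positions 24-25 of SNORD45A the control libraries stood at 6.38% and 19.4% and the knockdown libraries, at 10.4% and 11.8%, lay between them (adjusted p = 0.627, change of -1.78 points, 95% interval -11.2 to 7.64). The remaining 2 untested sites were SNORD11 39-42 and SNORD47 57-58. SNORD11 39-42 had 26.7% and 47.4% in the control and 3.85% and 0% in the knockdown, on 15 to 26 reads. SNORD47 57-58, hosted by GAS5, had 66.7% and 71.4% against 27.3% and 25%, on 3 to 16 reads. Both had their knockdown libraries below the controls at a depth that does not allow the test.

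Sites that share an RNA were compared directly by a test that was added after the values had been seen. The log2 levels of both sites were subtracted within each library. The difference of this value between knockdown and control was tested with limma over all 23 such pairs of the snoRNA table. Of these pairs, 43.5% had unequal log2 changes at an adjusted p under 0.05. Among the 10 pairs in C/D snoRNAs 3 were unequal. In SNORD21, the log2 change of position 43 was lower than that of 39-40 by -0.59 (SE 0.11, adjusted p = 0.0235). In SNORD3A, the log2 change of positions 48-50 was lower than that of 11-13 by -0.80 (SE 0.11, adjusted p = 0.0148). That of positions 181-182 exceeded that of 48-50 by 0.55 (SE 0.09, adjusted p = 0.0213). The other 7 pairs missed the threshold, with an adjusted p of 0.0522 for the difference of -0.77 in SNORD14B and 0.0748 for that of -1.40 in SNORD45A, whose 95% interval runs from -2.72 to -0.08 unadjusted. In SNORD97 the difference was -0.05 with an interval from -2.60 to 2.50, so neither a like nor an unlike fall of its sites can be read. Such sites lie on the same molecules and largely on the same reads and are not independent of each other.

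**Figure D2:**
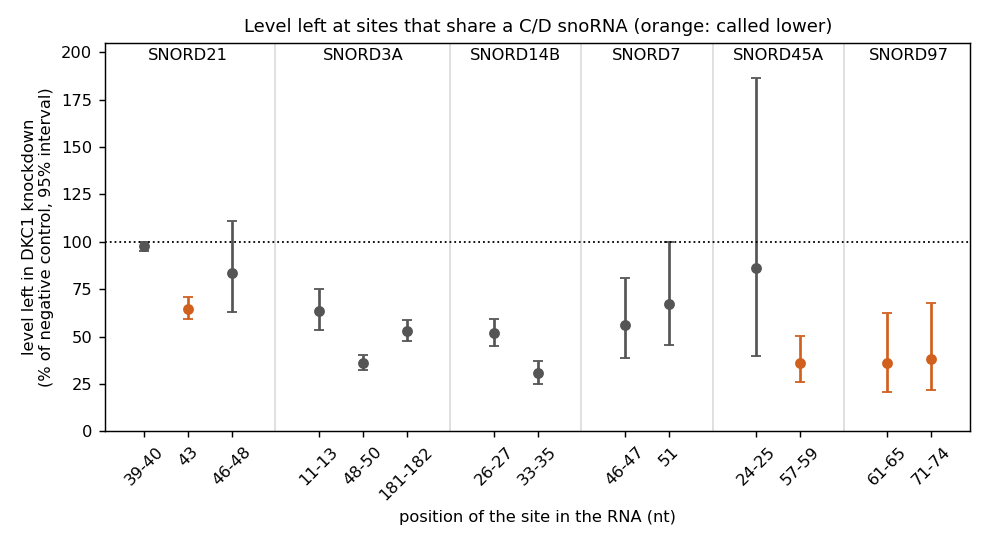
Share of the control level left in the DKC1 knockdown (y axis, %) for the sites (x axis, deposited position in nt) of the 6 C/D snoRNAs with more than 1 tested site. Bars are approximate 95% intervals that use the dispersion of the quasi-binomial model. Orange marks sites called lower and the dotted line no change. SNORD21 spans 64.8% to 97.6% and SNORD3A 36.3% to 63.3%, whereas the wide intervals of SNORD45A 24-25 and SNORD97 overlap much of the scale.

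Of the 26 sites, 24 could be placed in a GENCODE snoRNA, and each of them is a complete run of T with another letter on either side. Runs of 3 or more T made up 11 of the 24 modified runs (45.8%) against 35 of 339 (10.3%) among all T runs of the same RNAs. Single T made up 7 of 24 (29.2%) against 240 of 339 (70.8%). The authors' filter on sites is not given in the sources used here, and how far run length bears on detection was not tested. The 6 tested single-T sites included 4 called lower and a median of 43.8% left, and the 17 tested runs included 5 called lower and a median of 49.4% left. On the printed strand, TNTAG, a motif of the stand-alone synthase PUS7 with the site at its second T, was found at 1 of the 24 sites, SNORD45A 57-59. It was present at 5 of the 339 T runs (1.47%) and at 2 of the 69 located sites of the whole table. TNTAA, the other PUS7 form, held none of the 24 sites and 3 of the 339 runs (0.885%). The TRUB1-type motif GTTCNA also held none, and 1 of the 339 runs (0.295%). None of the 24 sites lay in a box C written as TGATGA or a box D written as CTGA, and motifs were searched as spelled, with no mismatch.

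By the median share left, the C/D members stood between U8 and U13 on one side and the H/ACA RNAs on the other. U8 and U13 are C/D snoRNAs too, so this does not place the C/D family as a whole. Of the tested sites, 3 of 4 in U8 and U13, 5 of 32 in H/ACA snoRNAs and 0 of 3 in scaRNAs were called lower. The median share of control level left was 28.3% in U8 and U13, 67.7% in H/ACA snoRNAs and 96.8% in scaRNAs, beside the 45.02% of the C/D sites. Classes were not tested against each other, since sites of 1 RNA are not replicates. Read coverage moved with the classes. The median ratio of knockdown to control reads over C/D sites was 1.04 in the treated and 0.835 in the untreated libraries. Over the U8 and U13 sites it was 0.986 and 0.905. Over H/ACA sites it was 0.263 and 0.252, with fewer knockdown reads at all 37, and over the scaRNA sites 0.272 and 0.314. Library totals are not in the tables, so less of an RNA per cell cannot be told apart from more of the other RNAs in a library. The part of coverage in the class medians was not tested.

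**Figure D3:**
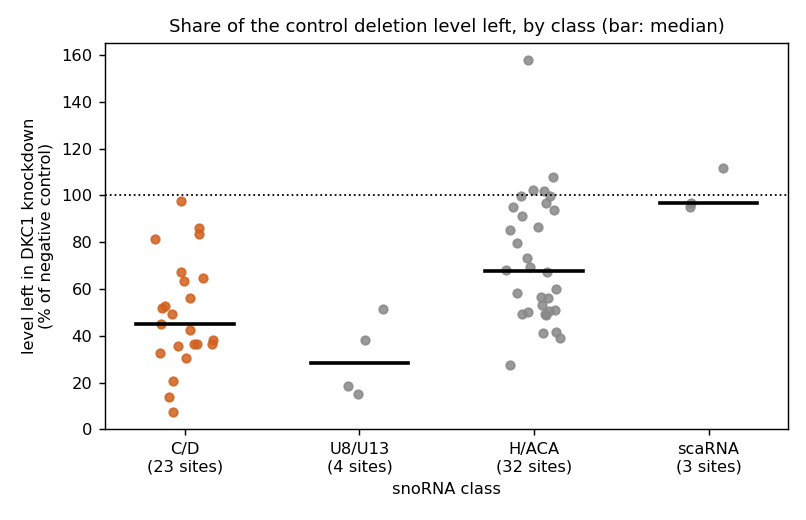
Share of the control level left in the DKC1 knockdown (y axis, %) at each tested snoRNA site, by class (x axis, with the number of sites), where bars are medians and the dotted line is no change. The 23 C/D sites all lie below 100%, from 7.35% at SNORD134 to 97.6% at SNORD21 39-40, around a median of 45.02%. Over all tested sites 57 of 62 lie below 100%, among them all 4 in U8 and U13 and 28 of 32 in H/ACA snoRNAs.

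**Figure D4:**
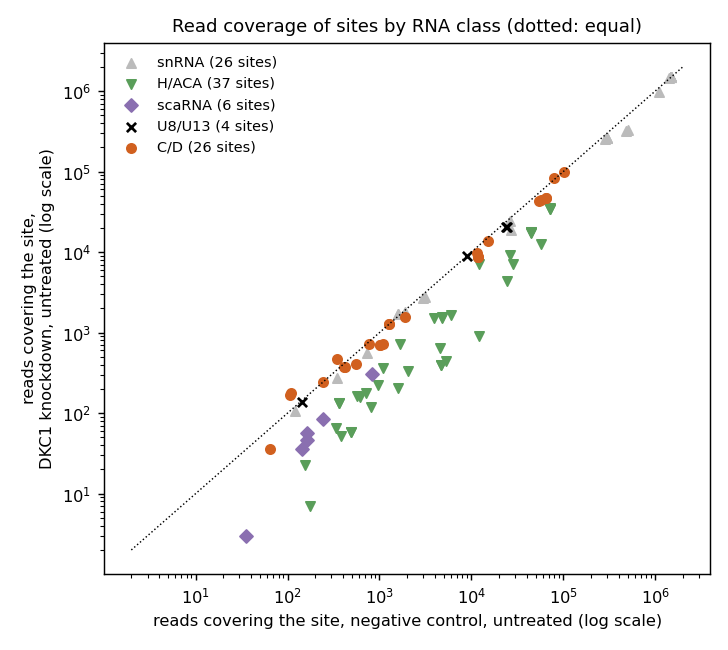
Reads covering each listed site in the untreated DKC1 knockdown library (y axis, log scale) against the untreated negative control library (x axis, log scale), by RNA class, where the dotted line marks equal numbers. C/D sites lie near the line, with a median ratio of 0.835, and H/ACA sites below it, with a median of 0.252.

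Depth differed widely among the C/D sites, and with it the precision of their levels. Their median coverage was 414 and 522.5 reads in the treated control libraries and 361.5 and 470.0 in the treated knockdown libraries, and 1270 and 1284.5 in the untreated ones. The 15 sites with at least 100 reads in all treated libraries included 3 called lower, at SNORD16, SNORD21 and SNORD92, and had a median of 51.9% left. The 8 sites with 20 to 99 reads in at least 1 library included the other 6 calls and had a median of 36.3% left. These 8 also had the higher control levels, with a median of 24.4% against 13.5%. Intervals that use the model's dispersion cover counting error and a technical spread shared by all 62 tested sites, not the spread of each site. The exact intervals of summed reads cover counting error only.

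In the authors' deposited table, 22 of the 26 C/D sites carry the label of a DKC1-dependent site, with a relative fall of 32.6% to 94.7%. It is also given to 22 of 37 sites in H/ACA snoRNAs, all 4 in U8 and U13 and 0 of 6 in scaRNAs. The 4 without it, at SNORD45A 24-25, SNORD21 39-40, SNORD21 46-48 and SNORD88A 68-70, have relative falls of 2.47% to 19.6% in that table. None of these 4 passed the test here. The label was also given to SNORD7 51, which missed the threshold, and to the 3 untested sites, so 18 labelled sites were lower at an adjusted p under 0.05 and 9 of these by at least 10 points.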

How the data were processed

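PRAISE levels in HEK293T small RNA were taken from the authors' snoRNA table of the DKC1 experiment. Per the file headers, the deposited counts are reads with a deletion and reads covering a site, the deposited deletion rate is a fraction of covering reads, and the deposited change after loss of the enzyme is of unit other. By its values it is the difference of mean fractions after subtraction of the untreated one. SAMtools 1.14, BWA, cutadapt and UMI-tools 1.0.0 were used with GRCh38, per the submitters' processing notes. How sites were filtered is not given in the sources used here. Deposited knockdown counts equalled their rates (tolerance 1e-06) at 2 of 73 sites in each treated library and 26 of 73 in the untreated one. The count was therefore replaced by rate times coverage, which was a whole number to within 0.02 at every one of the 73 sites. Control counts equalled their rates at all 73.

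Sites with at least 20 reads in all 4 treated libraries were fitted with a quasi-binomial model in R 4.3.3, with dispersion moderated over the table by limma 3.58.1 and kept at 1 or more. P-values are from its F test, two-sided, adjusted by Benjamini-Hochberg. All 62 sites received the same dispersion, 1.34 on 124 degrees of freedom, so a site with noisier libraries has the same assumed spread as the rest. Shares left are ratios of the mean library levels of the groups, unless given from summed reads. Intervals (95%) of changes and shares are approximate and use the dispersion of that model, and those of summed reads are exact (Clopper-Pearson). Pairs of sites in 1 RNA were compared with limma on log2 levels with 0.5 added to deletions. On simulated tables of 62 sites with 20 draws, 75.8% of sites moved by 15 points and 0.5% of unmoved sites were called. Moved sites of low control level were raised in them and the others lowered, so falls at low levels were not simulated. The spread was drawn at the fitted dispersion of 1.34. All 26 member sites are named. The members and lists were chosen with earlier results of these data known. Alternatives were another coverage minimum, each library left out, subtraction of untreated levels, deposited counts, a replicate block, limma on percentages, Fisher's exact test, a joint fit with the snRNA table and other least differences. The joint fit leaves out positions 9-12 of RNU6-1 and RNU4ATAC, where knockdown coverage is of the other RNA's size.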

Additional observations from a re-analysis of the deposited data

How the results depend on the processing

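No C/D site was called higher under any alternative, and in the main fit no site of any class was. The count of 9 lower sites stayed at 9 after subtraction of untreated levels, with limma on percentages, with Fisher's exact test and in the joint fit with snRNA sites, and was 10 without a coverage minimum. Subtraction entered only the size of the difference. The test was still run on the unsubtracted counts, so its p-values could not change. Leaving out 1 library gave 2 to 10 lower sites, a median change from -9.49 to -7.21 points and a median of 44.7% to 49.6% left. The count was 2 without knockdown replicate 1 and 2 without knockdown replicate 2, where SNORD16 51 and SNORD92 31-33 remained. The denominator then fell from 124 to 2.263 degrees of freedom and the dispersion of single sites rose to as much as 5.28. SNORD45A 24-25 turned to a rise of 4.75 points without control replicate 2 (adjusted p = 0.377, limma-moderated) and was -8.32 points without control replicate 1.

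A minimum of 100 reads left 15 sites, with 3 lower, a median change of -6.21 points and 51.9% left, because 8 sites are no longer tested. With no minimum, the median change was -11.4 points. The deposited knockdown counts, which contradict the rates beside them, gave 19 lower sites, a median change of -17.0 points and 0% left. With no least difference 18 sites were lower, and with one of 20 points 4. The replicate block gave 10 lower sites, adding SNORD88A 68-70. Same-numbered libraries deviated with r = 0.084 over 62 sites, so the numbers are not taken to pair the libraries. Depth limits the 8 sites with under 100 reads in a library and leaves 3 untested.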
